A study of Mus musculus with 2 samples.

Results

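The MS4A genes encode small proteins that cross the cell membrane several times, and many of them are expressed in blood and tissue phagocytes. Described here are 9 of them, Ms4a4a, Ms4a4b, Ms4a4c, Ms4a4d, Ms4a6b, Ms4a6c, Ms4a6d, Ms4a7 and Ms4a8a. They were taken by symbol from the 19863 genes that the deposited array table names singly. Each had 1 transcript cluster, the array's unit of measurement for a gene, so no choice between rows was needed. The array study compared bone marrow derived macrophages of mice aged 8 weeks, 1 control culture with 1 labelled beta-catenin deficient. Both were grown in medium conditioned by L929 fibroblasts, which supplies macrophage colony-stimulating factor. The sources used here do not give the deleted allele, the Cre driver, the mouse strain or how many animals went into a culture. RNA was read on an Affymetrix ST array, whose probes lie along the whole transcript. Values are on the log2 scale from RMA, which as a method subtracts background and normalizes arrays to each other, and a difference is always the array labelled deficient minus the control array. With 1 array per group there was no spread between cultures to set a difference against and no test was possible, so higher and lower describe these 2 arrays.

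MS4A proteins are best known from CD20 (Ms4a1) of B cells and from the beta chain of the high-affinity IgE receptor (Ms4a2) of mast cells. These 2 and the remaining genes form a cluster of tandem copies, and several of the remaining ones are expressed in monocytes and macrophages. There MS4A4A sits at the surface, associates with the fungal receptor dectin-1 and influences how much of the lipid receptor TREM2 is shed. Beta-catenin links cadherins to the cytoskeleton and, with TCF and LEF factors, carries the canonical Wnt signal into the nucleus.

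The label of the deficient array could be checked only in part. Ctnnb1, the gene of beta-catenin, read 11.29 in the control array and 11.44 in the other, a difference of 0.15. Its RNA was thus not lower in the array labelled deficient. The deleted part is not known here, and how many of the probes lie in it was not tested. Axin2, a feedback target of beta-catenin, went from 7.61 to 5.97, a difference of -1.64, with the second value below the floor given next. The array is called by its label throughout. A floor of 7.28, which is the median over both columns, sets off dim values here. Of 17 macrophage genes above it 14 lay within 1.5-fold and the median difference was 0.11. The complement gene C1qb (0.78) and the Fc receptor Fcgr1 (0.78) were highest, and the chemokine receptor Cx3cr1 (-0.68) and the lysozyme gene Lyz2 (-0.38) lowest. Adgre1, a surface marker of mouse macrophages, read 12.23 in both arrays.

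The MS4A members split into a group that was higher in the array labelled deficient and a group that was nearly level. Ms4a4c, Ms4a4d and Ms4a4a were more than 2-fold higher, Ms4a6b was 1.58-fold higher, and Ms4a6d, Ms4a7 and Ms4a6c lay within 1.5-fold. Ms4a4b and Ms4a8a were dim in both arrays. The RNA came from whole cultures, so fewer cells of a type and less RNA per cell cannot be told apart. Values under the floor were treated as dim. Of the 9 members, 7 had at least 1 value at or above it and 6 had their control value there. Ms4a4d passed it through the array labelled deficient only. Of those 7, 3 were at least 2-fold higher, against 2.96% of all 10657 genes with a value that high, and 0 were at least 2-fold lower, against 1.59%. At 1.5-fold the counts were 4 higher and 0 lower, against 7.54% and 8.81% of genes. With the floor set on the mean of both arrays Ms4a4d dropped out. Then 2 of 6 members were at least 2-fold higher, against 2.66% of genes. The members were chosen with earlier results of these data known, so the shares are a description and not a test. The 7 differences had a median of 0.66 and those of the 10657 genes one of -0.08, and over all 9 members the median was 0.31.

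**Figure D1:**
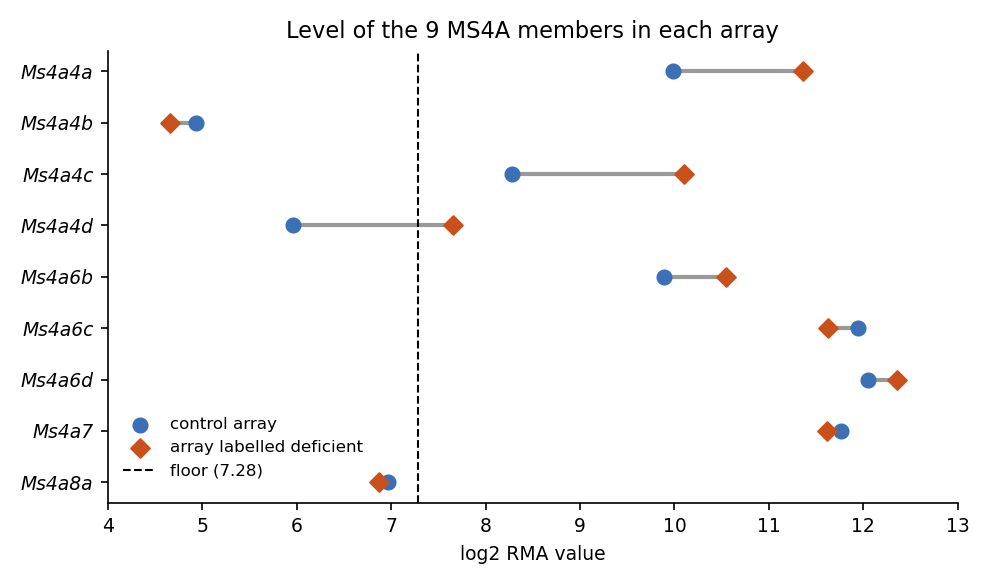
Log2 RMA value (x axis) of each of the 9 MS4A members (y axis) in the control array (circles) and the array labelled deficient (diamonds), 1 array each, with the floor of 7.28 as a dashed line. Ms4a4a, Ms4a4c and Ms4a4d are shifted furthest to the right, while Ms4a4b and Ms4a8a lie below the floor in both arrays; probes of different genes are not on a common scale, so positions are read within a gene.

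Within the Ms4a4 branch, 3 of 4 members were higher. Ms4a4c, a gene expressed in monocytes and raised by interferon, went from 8.28 in the control array to 10.11, a difference of 1.83 or 3.55-fold. It ranked 62 from the top among those 10657 genes, so that 0.582% of them had a difference as high. Ms4a4d went from 5.96 to 7.66, a difference of 1.70 or 3.25-fold. Its control value lay below the floor, in a range where the arrays differed in general. Over the 3979 genes whose mean level was 6 to 7 the median difference was -0.16, and 1.23% were at least 2-fold higher.

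Ms4a4a, the mouse counterpart of the macrophage surface protein MS4A4A, went from 9.98 to 11.36, a difference of 1.37 or 2.59-fold. Both of its values lay well above the floor, and it ranked 154, with 1.45% of genes as high. Of the 1535 genes whose mean level was 10 to 11, 2.74% were at least 2-fold higher. Ms4a4b, first described in T cells, behaved otherwise. It was dim at 4.93 and 4.66, a difference of -0.27 that turned positive after quantile normalization (0.18) and after subtraction of a level-dependent loess curve (0.15), so no direction is read from it.

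**Figure D2:**
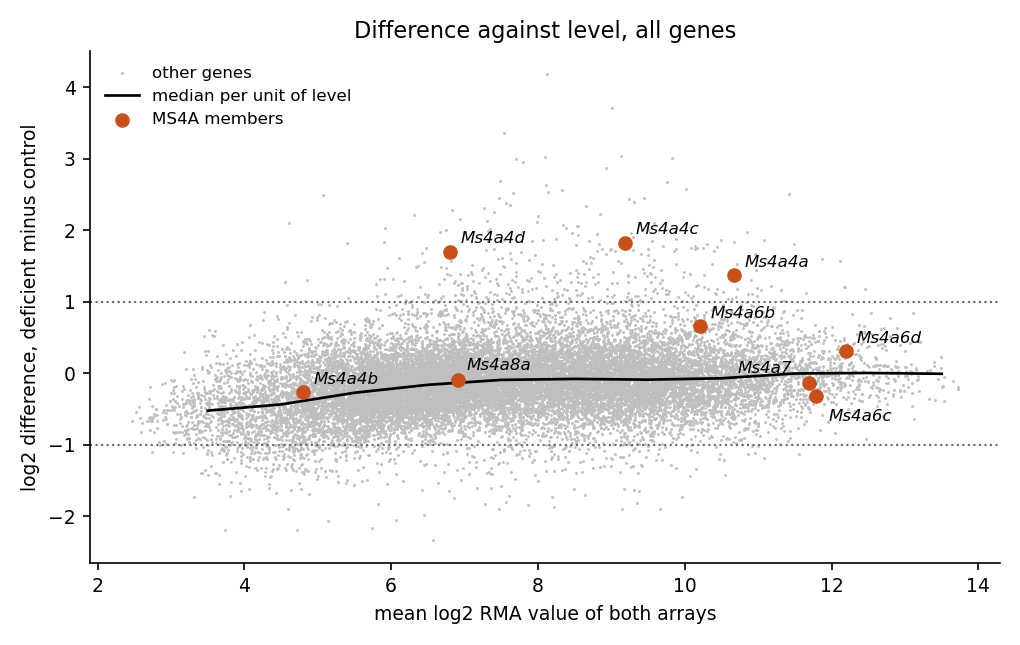
Log2 difference, deficient minus control (y axis), against the mean log2 value of both arrays (x axis) for 19863 genes (grey), with the 9 MS4A members named, the median difference per unit of level as a line and dotted lines at 2-fold. Ms4a4c, Ms4a4d and Ms4a4a lie above the upper dotted line, at 1.83, 1.70 and 1.37; Ms4a6b lies above the line of medians and Ms4a6c and Ms4a7 close to it.

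The Ms4a6 branch was bright and moved less. Ms4a6b, which has been described in T cells as well as myeloid cells, went from 9.89 to 10.54, a difference of 0.66, with 6.34% of genes as high. Ms4a6d, a macrophage and microglia gene, went from 12.05 to 12.36, a difference of 0.31, and 16.9% of genes were as high. Ms4a6c, a gene of monocytes and macrophages, went from 11.94 to 11.63. Its difference of -0.31 was the lowest among the members, and with 74.0% of genes as high or higher it lay inside the bulk. Of the 659 genes whose mean level was 11 to 12, 1.52% were at least 2-fold higher and 0.303% at least 2-fold lower.

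Ms4a7, a gene that marks tissue macrophages and macrophages at the borders of the brain, was nearly level at 11.76 and 11.62, a difference of -0.14. Ms4a8a, which has been described in alternatively activated macrophages, read 6.96 and 6.87. That difference of -0.10 turned positive after quantile normalization (0.02) and loess (0.04), with both values below the floor.

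**Figure D3:**
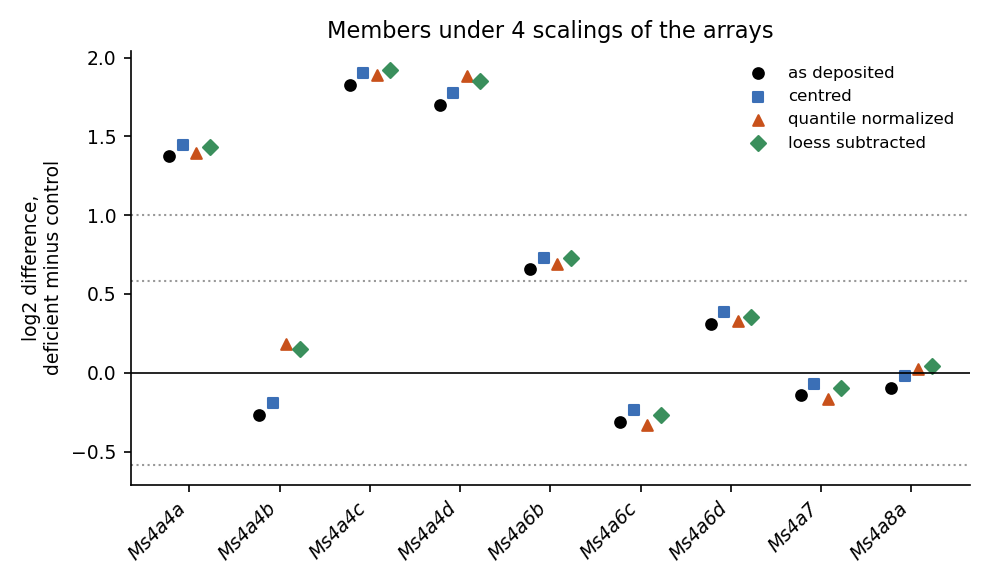
Log2 difference, deficient minus control (y axis), of the 9 MS4A members (x axis) with the columns as deposited, centred, quantile normalized or with a loess curve on level subtracted; dotted lines mark 2-fold higher and 1.5-fold in either direction. Ms4a4c stayed between 1.83 and 1.92, Ms4a4d between 1.70 and 1.89 and Ms4a4a between 1.37 and 1.45, while Ms4a4b and Ms4a8a crossed 0.

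The members include close copies. The pair Ms4a6b and Ms4a6c, whose start regions are alike, differed by 0.66 and by -0.31 in these arrays, the latter within 1.5-fold. For 8 members a promoter was found in the RefSeq table of GRCm38.p6, and Ms4a6d had no entry. The 250 bases before each annotated start were compared in 35 pairs of promoters (Ms4a7 has 2 annotated starts). Ms4a6c and Ms4a6b share a run of 48 identical letters, and 148 of 172 aligned bases (86.0%) are the same. For Ms4a4c and Ms4a4b the longest shared run is 20 letters, and 117 of 132 aligned bases (88.6%) are the same. In the 33 other pairs the longest shared run was 6 to 9 letters. The sequences are shown so that the likeness within each pair can be read beside the values. Each is written 5′ to 3′ and ends at the base before the start, with the longest run shared within the pair in capitals.
Ms4a4c, chr19:11407411-11407660, + strand: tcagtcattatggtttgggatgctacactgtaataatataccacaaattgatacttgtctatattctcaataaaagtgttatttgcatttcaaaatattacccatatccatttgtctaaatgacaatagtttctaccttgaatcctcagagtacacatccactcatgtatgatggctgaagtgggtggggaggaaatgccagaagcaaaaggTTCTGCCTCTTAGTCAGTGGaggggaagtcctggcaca
Ms4a4b, chr19:11443308-11443557, + strand: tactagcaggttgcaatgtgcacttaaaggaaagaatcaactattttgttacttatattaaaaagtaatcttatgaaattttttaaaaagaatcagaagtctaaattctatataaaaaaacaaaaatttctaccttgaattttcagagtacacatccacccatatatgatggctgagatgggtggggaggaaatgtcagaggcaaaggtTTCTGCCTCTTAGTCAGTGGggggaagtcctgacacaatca
Ms4a6c, chr19:11469118-11469367, + strand: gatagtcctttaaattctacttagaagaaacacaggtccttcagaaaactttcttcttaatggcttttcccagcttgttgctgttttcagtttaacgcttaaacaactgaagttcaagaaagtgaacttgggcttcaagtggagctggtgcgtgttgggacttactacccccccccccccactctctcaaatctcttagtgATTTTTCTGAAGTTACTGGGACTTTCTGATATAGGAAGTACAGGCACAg
Ms4a6b, chr19:11518309-11518558, + strand: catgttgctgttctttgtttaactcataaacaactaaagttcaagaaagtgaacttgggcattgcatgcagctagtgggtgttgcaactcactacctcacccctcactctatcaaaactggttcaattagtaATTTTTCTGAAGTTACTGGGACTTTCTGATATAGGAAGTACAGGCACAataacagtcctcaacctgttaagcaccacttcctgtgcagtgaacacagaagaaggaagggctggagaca
In the first pair Ms4a4c differed by 1.83, while Ms4a4b was below the floor in both arrays and ran from -0.27 to 0.18 over the scalings, so the pair was not compared further. In the Ms4a6 pair Ms4a6b differed by 0.66 and Ms4a6c by -0.31, 0.97 apart. Over the 4 scalings Ms4a6b ran from 0.66 to 0.73 and Ms4a6c from -0.33 to -0.24. The scalings shift such bright genes only this little, so the kept signs are no check of the differences. Where transcripts of copies are alike, their probes may share signal. The probe sequences and the transcripts were not used here, so how far the values of a pair are independent was not tested.

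**Figure D4:**
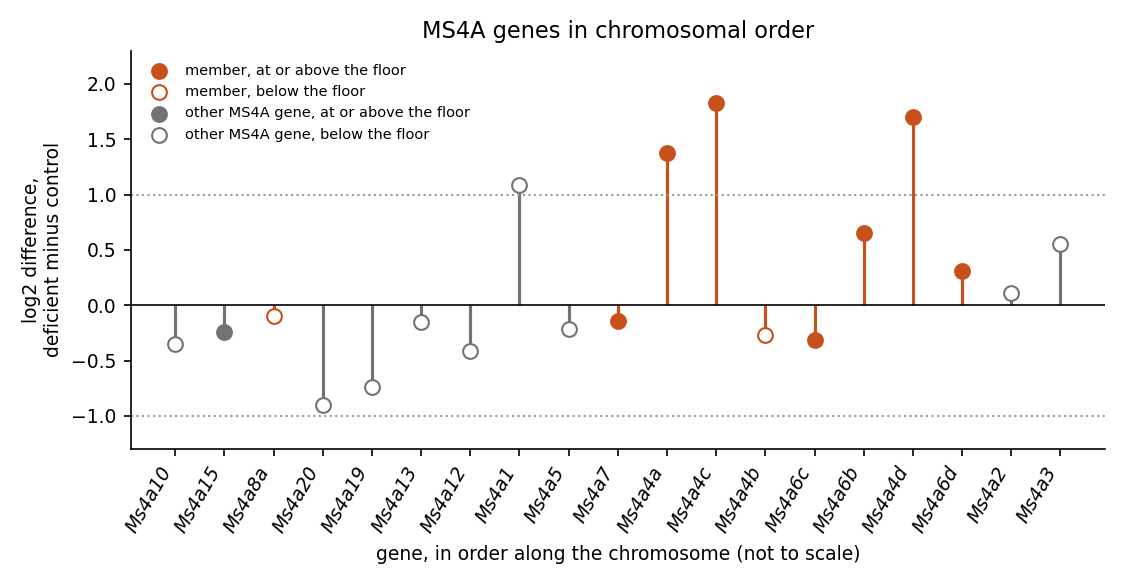
Log2 difference, deficient minus control (y axis), of the 19 MS4A genes with a row, in their order along chromosome 19 (x axis, not to scale); members are orange, other MS4A genes grey, and open circles are genes below the floor in both arrays. The higher members Ms4a4a, Ms4a4c, Ms4a6b and Ms4a4d lie in one stretch that also holds Ms4a4b and Ms4a6c, which differed by -0.27 and -0.31; the value of Ms4a4b turned positive after quantile normalization and loess.

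All 9 members lie on chromosome 19. In the RefSeq order Ms4a7, Ms4a4a, Ms4a4c, Ms4a4b, Ms4a6c, Ms4a6b, Ms4a4d and Ms4a6d follow each other without another MS4A gene between them, and Ms4a8a stands apart from them, between Ms4a18 and Ms4a20. The higher members were not adjacent throughout, because Ms4a4b and Ms4a6c lie between Ms4a4c and Ms4a6b.

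Short motifs for factors that bear on macrophages or on beta-catenin were searched on both strands of the same 250 bases in 32851 promoters. The core of the interferon-stimulated response element, GAAA repeated after any 2 bases, was in 0 of the 9 member promoters and in 2.98% of all. The gamma-activated site TTCNNNGAA was in 0 of 9 and in 7.02% of all. A core for PU.1, the factor of the myeloid lineage, GAGGAA, was in 2 of 9 and in 23.3% of all promoters, so the members' share is close to that of all. The 2 are those of Ms4a4c and Ms4a4b, with the match 61 to 56 and 64 to 59 bases before the start. These promoters are close copies with like letters around the match, so the 2 are not separate counts. Ms4a7 gave 2 of the 9 promoters. The TCF and LEF core CTTTGAT was in 3.21% of all promoters and, among the members, in that of Ms4a4d. The Ms4a4d promoter is printed because TCF and LEF are the nuclear partners of beta-catenin, with the match, 186 to 180 bases before the start and on the opposite strand, in capitals. No match overlapped another.
Ms4a4d, chr19:11536544-11536793, + strand: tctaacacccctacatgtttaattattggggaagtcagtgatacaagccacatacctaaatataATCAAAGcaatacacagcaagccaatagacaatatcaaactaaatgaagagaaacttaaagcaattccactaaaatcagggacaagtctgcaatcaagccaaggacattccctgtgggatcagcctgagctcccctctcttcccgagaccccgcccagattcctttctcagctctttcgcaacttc
A match describes letters and not a bound site, and elements outside these windows were not searched. Whether these matches bear on the values of the members was not tested.

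The rest of the MS4A family was mostly dim. The RefSeq assembly names 12 other MS4A genes, of which 10 had a row here, and 9 of these lay below the floor in both arrays. The exception, Ms4a15, read 7.47 and 7.23. CD20, Ms4a1, went from 5.55 to 6.64, a difference of 1.08 that stayed below the floor. Other B cell genes are given beside it. Of 12 with a row (mean levels 7.40 and 7.25) 7 were below the floor in both arrays. Cd79a (5.76 and 6.58) and Vpreb1 (0.06) had positive differences. Those of Pax5 (6.79 and 6.68), Fcer2a (-0.18), Igll1 (-0.47), Vpreb3 (-0.76) and Cr2 (-1.49) were negative. Pax5 and Fcer2a turned positive under another scaling. The other 5, from Ebf1 (0.58) and Cd79b (0.32) to Vpreb2 (-0.35) and Blnk (-0.45), all lay within 1.5-fold, except that Ebf1 passed it upwards under the 3 other scalings. Ms4a3, which marks granulocyte and monocyte progenitors, read 6.58 and 7.14, and the IgE receptor chain Ms4a2 4.85 and 4.96. The lowest differences were those of Ms4a20 (from 3.69 to 2.79) and Ms4a19 (from 3.58 to 2.84). At mean levels from 3 to 4 the median difference of all 540 genes was -0.52. Ms4a12 (5.75 and 5.34), Ms4a10 (6.93 and 6.58), Ms4a5 (4.38 and 4.16) and Ms4a13 (4.76 and 4.60) were also dim. The last pair turned positive after quantile normalization and loess. Tmem176a and Tmem176b, related membrane genes outside the cluster, differed by 0.66 (9.47 to 10.12) and 0.52 (11.36 to 11.88).

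Genes of proteins with which MS4A proteins are known to work, or that are linked to such proteins, were nearly level. Of 13 such genes, 11 were at or above the floor and 11 of 11 lay within 1.5-fold, with a median of 0.15. Of all 10657 genes at or above the floor, 7.54% passed 1.5-fold upwards and 8.81% downwards, so most genes also lay within it. Trem2 went from 12.02 to 12.27, a difference of 0.25, and its signal adapter Tyrobp from 12.70 to 12.51 (-0.19). The sheddases of TREM2, Adam10 and Adam17, differed by -0.33 and 0.15. Dectin-1, Clec7a, differed by 0.26, its kinase Syk by 0.22 and their adapter Card9 by 0.11. Apoe, a lipid carrier bound by TREM2, differed by 0.44, progranulin, Grn, by 0.17, and the tetraspanin Cd63 by -0.25. Fcer1g, the gamma chain of Fc receptors, differed by -0.03, a sign that changed with the scaling. The alpha chain of the IgE receptor, Fcer1a (5.61 and 5.16), and Kit (6.78 and 6.73), a growth factor receptor of mast cells, were below the floor. The difference of 1.37 in Ms4a4a stood beside differences from -0.33 to 0.44 in the 11 listed genes at or above the floor.

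Transcription factors of macrophages and of the interferon response went both ways. Of the 14 measured, all bright enough, 4 passed 1.5-fold upwards, 3 downwards and 7 neither way, with a median of 0.31. The interferon factors Irf7 (1.78), Stat2 (0.81) and Irf9 (0.50) had positive differences, as had Pparg, a lipid-sensing receptor (1.09), and Maf, a macrophage factor (0.66). Klf4 (-0.89), Cebpa (-0.71) and the glucocorticoid receptor Nr3c1 (-0.65) were the lowest. PU.1, Spi1 (-0.17), Cebpb (0.01), Irf8 (0.26), Stat3 (0.41), Stat6 (-0.19) and the oxysterol receptor Nr1h3 (0.36) lay within 1.5-fold. Nr3c1 crossed the line of 1.5-fold under centring and loess, where 2 factors were lower.

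Several programs in which MS4A genes have been described are given beside the members. Genes of inflammatory monocytes were higher in 7 of 9 cases at 2-fold (median 1.54), from Chil3 (2.20) and Plac8 (1.96) down to Thbs1 (0.40) and Fn1 (0.22). Chil3 was below the floor in the control array at 6.90. In the interferon-stimulated list 17 of 21 passed 1.5-fold upwards and 0 downwards (median 0.69). Irf7 (1.78) and Mx1 (1.53) were highest and Parp14 (0.36) and Oas3 (0.39) lowest. Ms4a4c has been described in both settings, and its 1.83 lay inside the range of the monocyte list and just above Irf7, the highest of the interferon list. Genes of alternative activation, a setting in which MS4A4A and Ms4a8a have been described, had a median of 0.50. Of 11 genes, 5 passed 1.5-fold upwards and 1 downwards, from Clec10a (2.96) and Arg1 (2.53) to Tgm2 (0.29) and Ccl17 (-0.84). Of the 7 with a control value at the floor 1 was higher and 1 lower, and Clec10a (6.32) and Arg1 (6.39) were dim there. Glucocorticoids raise MS4A4A in macrophages. Of 7 glucocorticoid targets, 0 passed 1.5-fold upwards and 2 downwards (1 under centring and loess), with a median of -0.22. They ran from Klf9 (0.22) and Dusp1 (-0.15) to Per1 (-0.65) and Tsc22d3 (-1.35). The part of these programs in the values of the members was not tested.

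**Figure D5:**
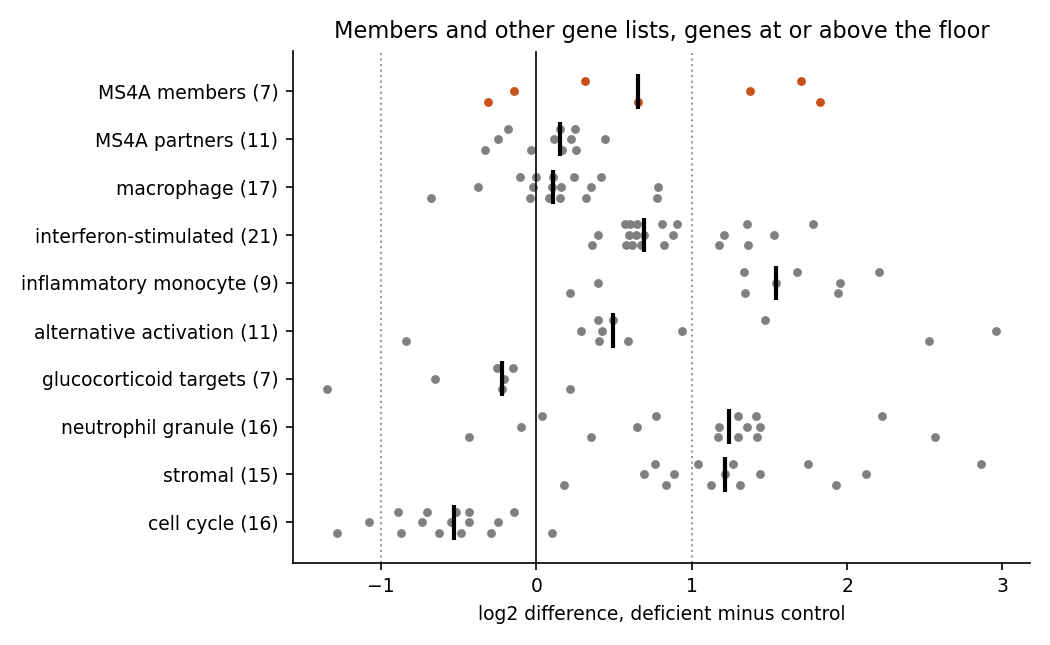
Log2 difference, deficient minus control (x axis), of each gene at or above the floor in the MS4A members (orange) and 9 other gene lists (grey), with list medians as black bars, gene numbers in parentheses and dotted lines at 2-fold. The MS4A members spread from -0.31 to 1.83, the MS4A partners from -0.33 to 0.44, and inflammatory monocyte, neutrophil granule and stromal genes have medians above 1. The list drawn as MS4A partners also holds genes linked to such partners.

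Markers of other cells that a marrow culture can hold are given beside the members. In the neutrophil granule list 12 of 16 genes passed 1.5-fold upwards and 0 downwards, with a mean level of 8.39 in the control array and 9.43 in the other. Of the 12 whose control value reached the floor, 9 were higher. Retnlg, Ctsg and Prtn3, and also Ly6g with a difference of 0.35, reached it only in the array labelled deficient. Retnlg (2.57) and Mpo (2.22) were highest and Camp (-0.43) and Cebpe (-0.10, positive under loess) lowest. Stromal genes were higher in 14 of 15 and lower in 0 (13 of 13 with a control value at the floor), with mean levels of 8.55 and 9.83, led by Cxcl12 (2.87) and Pdgfra (2.12), with Thy1 (0.18) and Col3a1 (0.69) lowest. Dendritic cell genes were higher in 6 of 8 and lower in 2 (1 under the 3 other scalings), with mean levels of 7.77 and 8.03 over 14 genes. Of the 6 with a control value at the floor, 4 were higher and 2 lower as deposited, since Cd209a (6.56) and Kmo (6.23) were dim there. H2-Aa (1.87) and Itgax (1.53) were highest, Cadm1 (-1.38) and Ccr7 (-0.63) lowest, and the 6 genes below the floor in both arrays had negative differences: Clec9a (-0.90), Batf3 (-0.61), Xcr1 (-0.35), Siglech (-0.35), Flt3 (-0.24) and Zbtb46 (-0.11, positive under another scaling). Mast cell and basophil genes had mean levels of 6.89 and 7.23, with 3 of 6 higher, led by Prss34 (2.31) and Cpa3 (1.98), above Srgn (0.32) and Hdc (0.02). Prss34 and Cpa3, proteases of basophils and mast cells, were dim in the control array at 6.11 and 5.68, and 0 of the 2 with a control value at the floor were higher. The 5 below the floor in both arrays were Mcpt4 (-1.04), Cma1 (-0.52), Fcer1a (-0.45), Il4 (-0.15, positive under another scaling) and Tpsb2 (0.0035). Eosinophil genes had mean levels of 6.46 and 7.18, with 2 of 4 higher, Prg2 (1.99) and Ear6 (1.39), above Siglecf (0.31) and Ccr3 (0.22). Prg2 (6.32) and Ear6 (6.06) were also dim in the control array, so that 0 of the 2 with a control value at the floor were higher. The part of these cells in the values of Ms4a4a, Ms4a4c, Ms4a4d and Ms4a6b was not tested.

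T cell genes are given beside Ms4a4b and Ms4a6b, which T cells express. Of 14 T and NK cell genes 9 were below the floor in both arrays, among them Cd3e (7.26 and 6.75), Cd3d and Cd3g. All 9 had negative differences as deposited, from Themis (-1.23) to Cd247 (-0.23), and Trat1 (-0.35) turned positive under another scaling. The list had mean levels of 6.85 and 6.45. The remaining 5 ran from Nkg7 (1.09) and Lat (0.56), which follow T and NK cells, to Il7r (0.05) and Cd5 (-1.21), and 1 of them passed 1.5-fold in each direction (under the 3 other scalings 2 upwards). Nkg7 reached the floor only in the array labelled deficient (6.43 and 7.52). Their part in the values of Ms4a4b and Ms4a6b was not tested. Proliferation genes were lower beside the higher members, with 7 of 16 cell cycle genes past 1.5-fold downwards and 0 upwards (median -0.53). Under the 3 other scalings 6 passed it downwards. Among them Kif11 (-1.28) and Bub1 (-1.08) were lowest as deposited, and of all 16 Aurkb (0.10) and Pcna (-0.14) were highest.

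By the distance between value pairs over the 2 arrays, the 3 genes nearest to Ms4a4c were Lrrc32 (8.28 and 10.25), Scd1 (8.34 and 10.24) and Mustn1 (8.43 and 10.15), at distances from 0.14 to 0.16. Those nearest to Ms4a6c, the member with the lowest difference, were Il10rb (11.92 and 11.65), Zcrb1 (11.91 and 11.62) and Iqgap1 (11.92 and 11.66), at distances from 0.03 to 0.04. With 2 points per gene and probes of unlike brightness, this likeness is a description of values only.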

How the data were processed

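The deposited table held 25917 rows of log2 values in 2 columns, 1 per array. The authors made these log2 values with RMA, per the submitters' processing notes. The sources used here give neither its version and settings nor whether both columns came from 1 run. The log2 scale was taken from the range, 2.70 to 14.1 in the control column (median 7.31) and 2.12 to 13.98 in the other (median 7.24).

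Gene names came from GEO's platform annotation (21624 with 1 symbol, 1568 with several, 2725 with none), updated by Entrez ID through the RefSeq table of GRCm38.p6. Per gene the row with the highest mean was kept. Differences were counted at 2-fold and 1.5-fold where the higher value reached the floor of 7.28. With 1 array per group no p-value or error was computed, and the number of arrays limits the precision. The 9 members and all gene lists were chosen with earlier results of these data known.

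Named genes were all MS4A genes with a row, the partner and transcription factor lists, the 2 highest and 2 lowest of every other list described, and the 3 genes nearest to the members of largest positive and negative difference. Genes below the floor in the B cell, dendritic, mast cell and basophil, and T and NK cell lists, and Adgre1, were added after their values were seen. Alternatives were centring, quantile normalization, loess (statsmodels 0.14.6), the mean of all rows, and the floor left out, raised to the 75th percentile or set on the mean. Promoters were aligned locally with Biopython 1.88. Protein sequences were not used here. Counting was checked on simulated data.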

Additional observations from a re-analysis of the deposited data

How the results depend on the processing

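Under centring, quantile normalization, loess and the mean of all rows, 3 of 7 members passed 2-fold upwards, 4 passed 1.5-fold upwards and 0 were lower at either size, as in the deposited values. With the floor at the 75th percentile or on the mean of both arrays Ms4a4d dropped out, and 2 and 3 of 6 members were higher. The members' median, 0.66 as deposited, was 0.31 with no floor, which adds Ms4a4b and Ms4a8a, and 0.48 with the floor at the 75th percentile and on the mean. Centring shifts every gene alike and each member has 1 row, so only quantile normalization and loess could reorder the members. Of their 18 values 12 moved by at most 0.1. The 6 others were those of Ms4a4d (1.89 and 1.85), Ms4a4b and Ms4a8a. The arrays' scaling shifted the median of all 19863 genes from -0.15 to -0.0010 with quantile normalization and 0.02 with loess. Over genes at or above the floor the 2-fold counts were 315 higher and 169 lower as deposited, a share of 65.1% higher, and 374 and 114 with loess (76.6%). At 1.5-fold they were 804 and 939 as deposited, 997 and 701 with centring, 946 and 737 with quantile normalization and 1048 and 644 with loess. With no floor 465 genes were at least 2-fold lower and 2590 at least 1.5-fold lower. No paired analysis was possible because each group has 1 array. RMA values carry no detection call, so passing the floor is not detection.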
